A study of Arabidopsis thaliana with 24 samples.

Results

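The genes described here form 1 stretch at the start of chromosome 5 of Arabidopsis thaliana that includes BSK10 and Fes1C. They were chosen by identifier, as all protein-coding genes from AT5G01010 to AT5G02480 except AT5G01220, AT5G01530, AT5G01600 and AT5G02380. This gave 152 members among the 27328 protein-coding genes of the study. The rule was set with the sku5 against WS values and the WS against Col-0 values in view, so those values are given below as a description and no test of the members rests on them. Of the 152 members, 151 stand in the table of WS and sku5, and AT5G01150 does not. Of these 151, 130 reached at least 1 FPKM in at least 3 of its 18 libraries and were tested. The 21 others did not, and 11 of them were listed at 0 in all 18 libraries. FPKM (sequenced fragments divided by transcript length and library size) is a level per transcript length, so levels can be compared between genes.

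The study sequenced poly(A) RNA of whole roots from seedlings flown on a suborbital vehicle and from ground controls kept on Earth, with 3 libraries in each of 8 groups. The Blue Origin flight (BO) carried sku5 and Wassilewskija (WS) seedlings that were 11 days old. The Virgin Galactic flight (VG) carried WS and Columbia (Col-0) seedlings that were 10 days old, and each flight held about 3 minutes of microgravity. The groups are sku5 BO flight, sku5 BO ground, WS BO flight, WS BO ground, WS VG flight, WS VG ground, Col-0 VG flight and Col-0 VG ground. WS and Col-0 are wild-type accessions, and sku5 is a mutant of the WS accession whose roots skew on a tilted agar surface. sku5 is represented by 1 mutant line, flown on 1 of the vehicles. Flight plates were wrapped in blackout cloth inside the payload, while BO ground plates stayed in the growth unit of the ground facility and were harvested later than the flight plates. Launch, handling, cover and harvest time thus differ between flight and ground together with gravity and cannot be told apart. Per the labels, a replicate is RNA of roots fixed in a single tube, and the labels do not say whether the replicates of a group shared that tube. The p-values below measure the spread between these samples, which may be technical in part. Read totals are not given with FPKM values, so the depth behind each value is unknown.

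The members share a place on the chromosome and not a function. BSK10 and Fes1C belong to different pathways. Brassinosteroids are steroid hormones of plants: they bind the receptor kinase BRI1 at the cell surface, which acts with BAK1 and passes the signal to membrane-bound kinases of the BSK family, and on through BSU1-type phosphatases, the inhibitory kinase BIN2 and the transcription factors BZR1 and BES1. In roots the pathway controls cell elongation and the activity of the meristem. BSK10 is a member of that kinase family, with a kinase domain and tetratricopeptide repeats. HSP70 chaperones bind unfolded proteins in cycles of ATP hydrolysis and nucleotide exchange, and Fes1 in yeast is an exchange factor for HSP70. Fes1C is 1 of the Arabidopsis relatives of Fes1, and its relative Fes1A is known for a role in heat tolerance.

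The library labels were checked with SKU5 itself, which encodes a cell-wall-associated protein related to copper oxidases. SKU5 had between 3.17 and 9.85 FPKM in the 6 sku5 libraries, against between 27.6 and 94.18 FPKM in the 12 WS libraries. Replicates correlated at r between 0.946 and 0.976 in the WS and sku5 table and between 0.931 and 0.955 in the Col-0 table (across genes, which are not independent), and no library stood apart. All 7 markers of root cell types that were looked up were above 1 FPKM in the group means. The 5 markers of green shoot tissue were detected too, with none at 0. Their summed level was 652 to 821 FPKM in sku5 BO flight, 391 to 557 FPKM in sku5 BO ground, 640 to 712 FPKM in WS BO flight and 396 to 586 FPKM in WS BO ground. At VG the sum ran from 120 to 284 FPKM in WS. In whole roots, fewer cells of a type and less RNA per cell cannot be told apart.

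In sku5 roots some genes of the segment had lower levels than in WS roots, and a few had higher levels. A gene is called apart here when its 3 sku5 libraries and its 3 WS libraries did not overlap, in the same direction, both in flight and on the ground at BO. Of the 151 members, 25 were apart (16.6%), 22 with sku5 lower and 3 with sku5 higher. Over all 20127 genes tested the share was 0.621%, with 0.407% for sku5 lower and 0.214% for sku5 higher. In flight alone, 41 members did not overlap, 31 of them with sku5 lower (8.94% of all genes tested, with 5.16% for sku5 lower and 3.78% for sku5 higher). On the ground alone, 41 members did not overlap, 29 of them with sku5 lower (7.19% of all genes tested, with 4.27% for sku5 lower and 2.93% for sku5 higher). No member was separated in opposite directions. The limma fit over all genes placed 3 members under an adjusted p of 0.05 in flight, 2 with sku5 lower and 1 with sku5 higher (0.0199% of all genes tested, 0.0149% lower and 0.00497% higher). On the ground it placed 2 there, both with sku5 lower (0.0149%, all lower). All these counts, those of the fit included, come from the contrast that chose the members, so they are no test of the members and nothing is read from them.

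**Figure D1:**
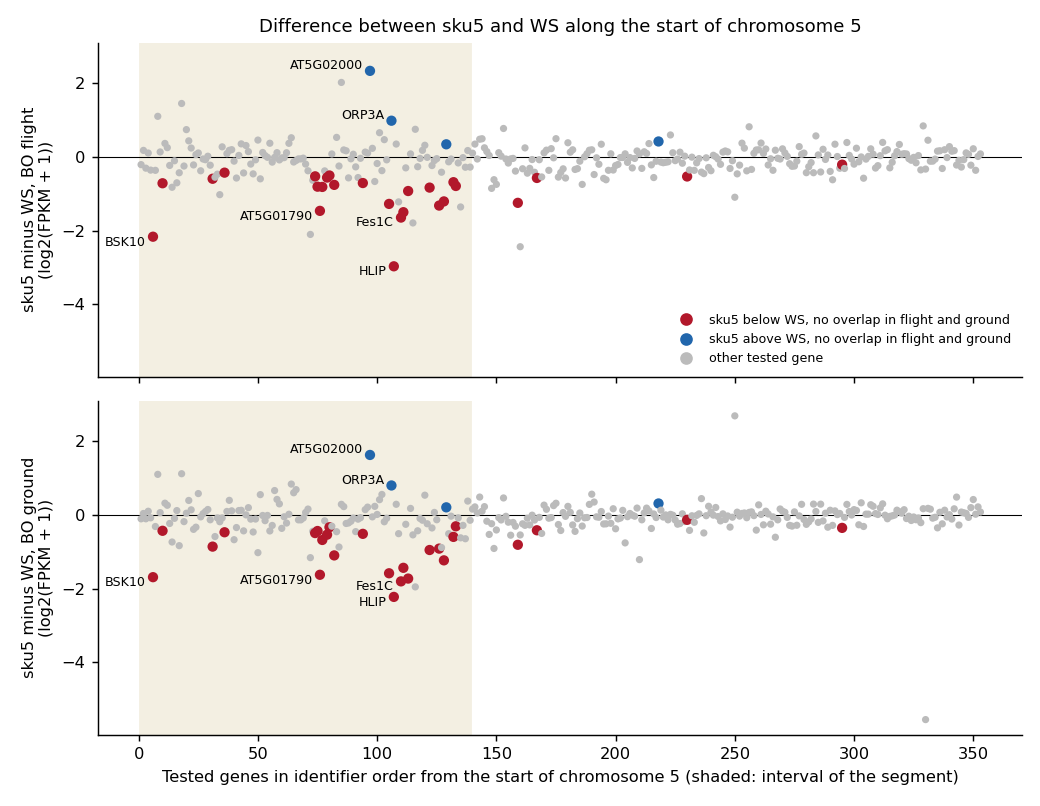
Each point is a tested gene in identifier order from the start of chromosome 5, with the interval of the segment shaded. The vertical axis is the fitted sku5 minus WS difference on the log2(FPKM + 1) scale, in flight (top) and on the ground (bottom). Red and blue points are genes apart between the lines with sku5 below and above WS. BSK10, Fes1C and HLIP lie well below 0 and AT5G02000 and ORP3A above it in both panels.

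The size of the difference varied among the members. Over the 130 tested members the median sku5 minus WS difference was -0.10 in flight and -0.13 on the ground, against -0.03 and -0.01 over all genes tested. sku5 was below WS in 83 of the 130 in flight and in 86 on the ground, against 55.3% and 52.5% of all genes tested. The mean of both differences was under 0.3 in size for 74 of the 130. At the other end, 8 members were apart with a difference of at least 1 in size in both conditions, out of 10 such genes in the whole table. Of the 20 apart genes with the largest mean difference in the table, 12 were members, and SKU5 stood first. In level, the 25 apart members had a median of 13.2 FPKM over the 18 libraries (from 1.37 to 405 FPKM), and the 105 tested members that were not apart had a median of 10.8 FPKM.

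Among the 14 kinases and signalling proteins of the segment, 4 were apart, all with sku5 lower. Of all tested members 19.2% were apart, most with sku5 lower, so the count is not read as a trait of this group. BSK10, the relative of the brassinosteroid signalling kinases, had the largest difference of the 4. Its level was 3.4, 2.88 and 2.63 FPKM in sku5 BO flight, against 15.03, 20.68 and 15.09 FPKM in WS BO flight. On the ground it was 7.03, 9.07 and 4.8 FPKM in sku5, against 21.34, 25.7 and 25.35 FPKM in WS. All 6 sku5 libraries lay below all 12 WS libraries, VG included, where WS ranged from 9.63 to 16.67 FPKM. The fitted sku5 minus WS difference was -2.17 in flight and -1.69 on the ground (SE 0.24 each, log2(FPKM + 1) scale). In Col-0 the level was lower again, with 1.41, 1.91 and 1.01 FPKM in VG flight and 0.97, 0 and 1.21 FPKM in VG ground, in a table normalized separately.

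AT5G01850, which encodes a protein kinase, had 5.7, 5.47 and 4.18 FPKM in sku5 BO flight, against 10.21, 10.18 and 7.64 FPKM in WS BO flight. On the ground it had 5.22, 2.67 and 5.15 FPKM in sku5, against 10.64, 10.28 and 9.49 FPKM in WS. It too separated the 6 sku5 libraries from all 12 WS libraries. The other apart members of the group were CIPK14, a kinase that works with calcineurin B-like calcium sensors, and RAPTOR2, a partner of the TOR growth kinase. CIPK14 averaged 41.5 ± 5.57 FPKM in sku5 BO flight and 62.1 ± 13.6 FPKM in WS BO flight, and 45.2 ± 7.22 FPKM in sku5 BO ground and 65.4 ± 1.96 FPKM in WS BO ground (SD, n = 3 each). RAPTOR2 averaged 1.15 ± 0.39 FPKM in sku5 BO flight and 2.07 ± 0.26 FPKM in WS BO flight, and 2.32 ± 0.424 FPKM in sku5 BO ground and 3.65 ± 0.39 FPKM in WS BO ground (SD, n = 3 each). The neighbouring gene CIPK15 did not overlap in flight, at 77.7 ± 4.88 FPKM in sku5 and 101.0 ± 3.35 FPKM in WS, and overlapped on the ground, at 55.0 ± 14.4 FPKM in sku5 and 60.4 ± 6.3 FPKM in WS (SD, n = 3 each).

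The other genes of the BSK10 pathway were not apart. Of a list of 27 genes of brassinosteroid synthesis and signalling, 24 were tested and none was apart between sku5 and WS. As only 0.621% of all genes tested were apart, nothing particular to the list is read from this. The median sku5 minus WS difference of the 24 tested genes of the list was -0.06 in flight and 0.02 on the ground, against -0.03 and -0.01 over all genes tested. The receptor BRI1 averaged 18.9 FPKM in sku5 BO flight and 16.8 FPKM in WS BO flight, and 17.9 FPKM in sku5 BO ground and 17.4 FPKM in WS BO ground. Its partner BAK1 averaged 39.2 FPKM in sku5 BO flight and 41.8 FPKM in WS BO flight. Among the other BSK genes, BSK1 averaged 50.2 FPKM in sku5 BO flight and 56.4 FPKM in WS BO flight, and BSK3 averaged 38.5 FPKM and 38.2 FPKM in the same groups. BSK11 and BSK12 were listed at 0 in all groups. The list does not hold BSK10 itself.

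Among 3 chaperone genes of the segment, Fes1C was apart and AT5G01390 and AT5G02480 were not. Fes1C had 14.28, 14.98 and 8.61 FPKM in sku5 BO flight, against 37.61, 34.99 and 50.64 FPKM in WS BO flight. On the ground it had 6.14, 9.88 and 6.66 FPKM in sku5, against 22.24, 33.08 and 30.91 FPKM in WS. Every sku5 library was below every WS library of either flight. WS at VG lay between 44.33 and 58.41 FPKM, a range that includes the highest WS BO flight library, at 50.64 FPKM. The sku5 minus WS difference was -1.64 in flight and -1.80 on the ground (SE 0.22 each, log2(FPKM + 1) scale). In the RefSeq annotation of TAIR10.1, Fes1C overlaps AT5G00820, AT5G02140 and AT5G02160 on the opposite strand, and 31.33% of its 50-base words also occur in AT5G00820. The kit marked strand, but the strand setting of the counting is not given in the sources used here, so reads of Fes1C and of its opposite-strand neighbours cannot be told apart. AT5G02160, an uncharacterized gene that overlaps Fes1C, had 20.55, 16.56 and 4.12 FPKM in sku5 BO flight, against 39.43, 22.26 and 45.54 FPKM in WS BO flight. Ground libraries had 4.36, 3.22 and 8.07 FPKM in sku5, against 14.66, 14.82 and 15.38 FPKM in WS.

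Fes1 relatives and HSP70 genes outside the segment, 2 of them directly after its end, were not apart between the lines. All 16 genes of that list were tested, and their median sku5 minus WS difference was 0.17 in flight and 0.22 on the ground. With 0.621% of all genes tested apart, the lack of apart genes is not read as particular to the list. Fes1A averaged 9.02 FPKM in sku5 BO flight and 9.99 FPKM in WS BO flight, and 19.8 FPKM in sku5 BO ground and 16.9 FPKM in WS BO ground. Fes1B stayed below 1 FPKM in the means of all WS and sku5 groups. HSP70-1, the main cytosolic HSP70, averaged 1450.0 FPKM in sku5 BO flight and 1110.0 FPKM in WS BO flight, and 1190.0 FPKM in sku5 BO ground and 1020.0 FPKM in WS BO ground.

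**Figure D2:**
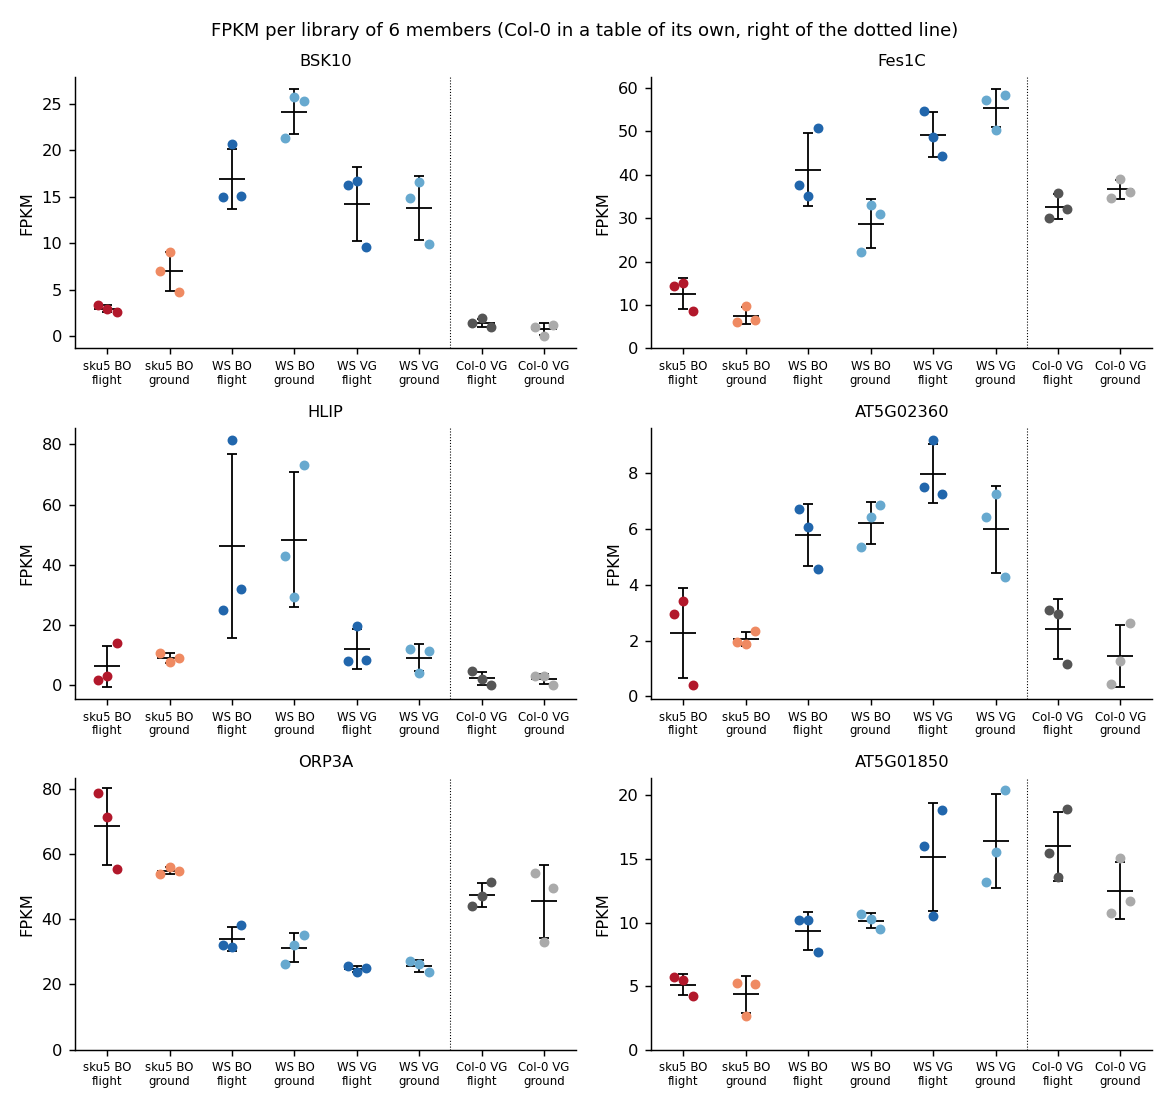
Points are the FPKM of single libraries, horizontal marks are group means and error bars are SD (n = 3), for BSK10, Fes1C, HLIP, AT5G02360, ORP3A and AT5G01850. In the sku5 groups ORP3A lies above, and the 5 other genes below, both WS groups of BO, and BSK10 is lowest in Col-0.

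HLIP, a one-helix protein of the chloroplast related to light-harvesting proteins, had the largest difference of the segment. It had 1.47, 3.01 and 13.9 FPKM in sku5 BO flight, against 25.03, 81.47 and 32.02 FPKM in WS BO flight. Ground libraries had 10.54, 7.43 and 8.83 FPKM in sku5, against 42.8, 29.1 and 73.12 FPKM in WS. The groups did not overlap, but the WS libraries spread widely, and the sku5 minus WS difference was -2.97 in flight and -2.23 on the ground (SE 0.58 each). WS at VG had lower levels, between 4.04 and 19.41 FPKM, which overlap sku5. HLIP belongs to green tissue in its known role. None of the 5 green shoot markers was apart, and their median sku5 minus WS difference was 0.03 in flight and -0.08 on the ground. Only 0.621% of all genes tested were apart, so nothing is read from the lack of apart markers. Of the 50-base words of HLIP, 14.05% occur in its opposite-strand neighbour AT5G02130.

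ORP3A, a lipid-binding protein of the oxysterol-binding family, ran the other way. Its level was 78.66, 71.3 and 55.46 FPKM in sku5 BO flight, against 32.02, 31.44 and 38.1 FPKM in WS BO flight. Ground libraries had 53.76, 55.86 and 54.67 FPKM in sku5, against 26.32, 32.12 and 35.15 FPKM in WS. Each sku5 library was above all 12 WS libraries, and the difference was 0.99 in flight and 0.80 on the ground (SE 0.14 each). AT5G02000, an uncharacterized gene, was also higher, with 9.49, 14.68 and 23.31 FPKM in sku5 BO flight, against 4.87, 2.3 and 0.59 FPKM in WS BO flight. On the ground AT5G02000 had 10.63, 13.95 and 14.39 FPKM in sku5, against 4.8, 3.96 and 2.13 FPKM in WS. 1 WS VG flight library, at 13.6 FPKM, fell within the sku5 range. The third apart member with sku5 higher, AT5G02370, which encodes a kinesin-like motor protein, differed by only 0.34 in flight and 0.21 on the ground (SE 0.16 each).

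Single genes with roles in transport or secretion were among the apart members. AT5G02180, a transmembrane amino acid transporter, was near the lower limit of what can be read: it had 0.04, 0.42 and 0.52 FPKM in sku5 BO flight, against 0.67, 2.33 and 1.76 FPKM in WS BO flight. Ground levels were 0.37, 0.16 and 0.67 FPKM in sku5, against 3.06, 3.47 and 4.3 FPKM in WS. It is 1 of 3 tested members that reached 1 FPKM in WS libraries only, so it passed the filter through the line in which it was higher. AT5G02280, a SNARE-like protein of vesicle transport, averaged 35.2 ± 7.93 FPKM in sku5 BO flight and 63.1 ± 11.4 FPKM in WS BO flight, and 48.5 ± 11.0 FPKM in sku5 BO ground and 93.3 ± 7.9 FPKM in WS BO ground (SD, n = 3 each).

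A small run of genes for cysteine-rich C1-domain proteins lies near the end of the segment. AT5G02360 had 2.94, 3.42 and 0.42 FPKM in sku5 BO flight, against 6.71, 6.08 and 4.56 FPKM in WS BO flight. On the ground it had 1.96, 1.89 and 2.35 FPKM in sku5, against 5.37, 6.42 and 6.86 FPKM in WS, and it too lay below all 12 WS libraries in each sku5 library. AT5G02340 had 0.88, 0.74 and 0.24 FPKM in sku5 BO flight, against 2.32, 3.16 and 3.56 FPKM in WS BO flight, and it had 0.79, 1.63 and 0.56 FPKM in sku5 BO ground, against 2.64, 2.41 and 2.95 FPKM in WS BO ground. Their neighbour AT5G02350 overlapped between the lines, at 0.48 ± 0.0624 FPKM in sku5 BO flight and 1.03 ± 0.61 FPKM in WS BO flight, and 0.257 ± 0.41 FPKM in sku5 BO ground and 1.48 ± 1.21 FPKM in WS BO ground (SD, n = 3 each). These genes have near copies: 24.59% of the 50-base words of AT5G02360 also occur in AT2G13910, and 8.28% of those of AT5G02340 in AT2G13950, so the counting could split reads between them.

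Further genes with large differences encode proteins of unknown function. AT5G02090 had 53.95, 29.88 and 51.53 FPKM in sku5 BO flight, against 80.73, 147.31 and 103.02 FPKM in WS BO flight. On the ground AT5G02090 had 15.93, 17.19 and 10.94 FPKM in sku5, against 31.64, 56.99 and 51.19 FPKM in WS, and in both lines all flight libraries lay above all ground libraries. AT5G01790 had 0.47, 2.67 and 2.93 FPKM in sku5 BO flight, against 11.11, 7.48 and 3.33 FPKM in WS BO flight, and it had 5.65, 6.23 and 3.5 FPKM in sku5 BO ground, against 20.34, 15.37 and 17.15 FPKM in WS BO ground. In flight the gap between the lines was narrow for AT5G01790, between 2.93 FPKM in the highest sku5 library and 3.33 FPKM in the lowest WS library.

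The other 9 apart members had smaller differences. These 9, and CIPK14, RAPTOR2, AT5G02280 and AT5G02370, are not among the 12 with the largest differences. Those of them that were neither called in a flight comparison nor among the most abundant were named after their values were seen. All 9 had sku5 lower, with mean differences between -0.42 and -0.75. They were FRB1, an O-fucosyltransferase-like protein of cell adhesion, AT5G01350, ESP4, which takes part in processing of mRNA ends, the dioxygenase AT5G01780, the saposin-domain protein AT5G01800, PUB16, a U-box ubiquitin ligase, AT5G01970, ALG10, a glucosyltransferase of protein N-glycosylation, and SMR3, a cyclin-dependent kinase inhibitor. AT5G01800 was the most abundant of them after AT5G01350, with 127.93, 108.85 and 111.17 FPKM in sku5 BO flight, against 182.47, 208.32 and 223.14 FPKM in WS BO flight. On the ground AT5G01800 had 81.65, 95.21 and 68.03 FPKM in sku5, against 117.75, 143.25 and 130.11 FPKM in WS. AT5G01780 and AT5G01970 separated all 6 sku5 libraries from all 12 WS libraries. With BSK10, AT5G01850, Fes1C, AT5G02360 and ORP3A, that made 7 members with such a separation, 6 with sku5 lower and 1 with sku5 higher. The whole table held 18 such genes (0.0894%), with 0.0497% for sku5 lower and 0.0397% for sku5 higher.

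Several lists of members by role had no apart member. None of the 7 tested transcription factors, 6 tested transporters, 7 cell wall genes and laccases, 3 genes of ubiquitin ligation and protein degradation, 2 tested genes of central metabolism or 4 tested genes of DNA repair and cell cycle was apart. These lists were made from locus identifiers and do not hold PUB16, SMR3 or AT5G02180, which were apart. The lists are short and 19.2% of all tested members were apart, so nothing about a role is read from these counts. Some members that were not apart still differed in 1 condition. AT5G02220, a cyclin-dependent kinase inhibitor, had 3.37, 1.29 and 0.91 FPKM in sku5 BO ground, against 13.19, 7.19 and 8.54 FPKM in WS BO ground. In flight it overlapped, at 6.91, 3.48 and 2.93 FPKM in sku5 and 1.04, 1.58 and 4.53 FPKM in WS. The abundant ribosomal gene RPL36C overlapped as well, at 558.0 ± 123.0 FPKM in sku5 BO flight and 555.0 ± 38.8 FPKM in WS BO flight, and 493.0 ± 115.0 FPKM in sku5 BO ground and 592.0 ± 86.6 FPKM in WS BO ground (SD, n = 3 each).

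The apart members were not spread evenly along the segment. From AT5G01010 to AT5G01490, 4 of 42 tested members were apart, from AT5G01500 to AT5G01990, 8 of 46, and from AT5G02000 to AT5G02480, 13 of 42. They also stood together: 7 of the 9 tested members from AT5G01770 to AT5G01850, 6 of 9 from AT5G02090 to AT5G02180 and 5 of 7 from AT5G02340 to AT5G02420 were apart. These 3 runs were picked after the values were seen. When all tested genes of chromosome 5 were cut into blocks of 50, the first 3 blocks held 4, 10 and 11 apart genes. None of the 90 other blocks of the chromosome held more than 2, and 69 of them held 0. Over chromosomes 1 to 5, the 393 blocks without members also held at most 2 apart genes, with 0 in 309 of them. The interval was set with these sku5 against WS values in view, so the comparison of blocks is a description and no test of the segment.

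**Figure D3:**
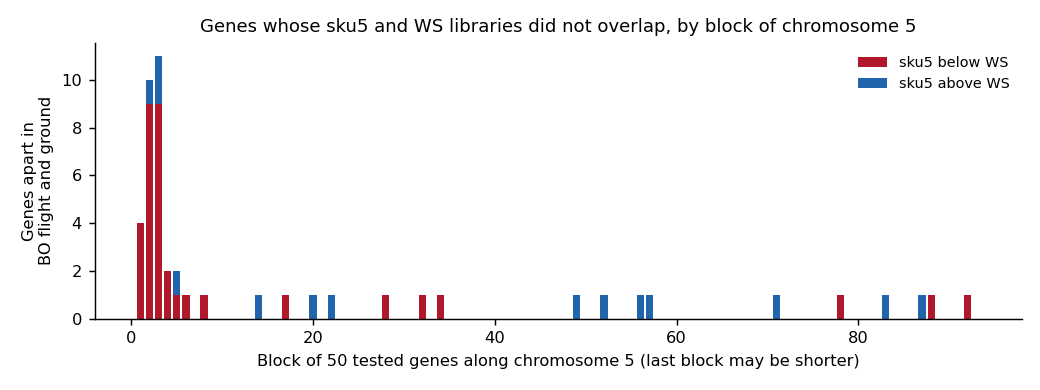
Bars give the number of genes apart between sku5 and WS in both BO conditions in each block of 50 tested genes along chromosome 5, stacked by direction (red, sku5 below WS, and blue, sku5 above WS). The first 3 blocks reach 4, 10 and 11 genes, and all later blocks stay at 2 or fewer.

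The genes at both ends of the segment differed little. The last 2 tested members, the cell cycle transcription factor DPA and AT5G02480, a small chaperone-like protein, were not apart. DPA had differences of 0.18 in flight and 0.38 on the ground (SE 0.23 each), and AT5G02480 had -0.27 and -0.14 (SE 0.14 each). The first 2 genes outside, both HSP70 genes, were not apart either. AT5G02490 (HSP70-2) averaged 6.34 FPKM in sku5 BO flight and 5.66 FPKM in WS BO flight, and AT5G02500 (HSP70-1) had differences of 0.35 in flight and 0.22 on the ground (SE 0.18 each). At the other end, AT5G01010 had differences of -0.21 in flight and -0.10 on the ground (SE 0.12 each), and AT5G01020 had 0.18 and 0.04 (SE 0.13 each).

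WS and Col-0 were compared at VG, where both were flown, as levels from 2 tables that were normalized separately, without a test. Of the 151 members in both tables, 28 did not overlap between WS and Col-0, in the same direction, in flight and on the ground, 20 with WS higher and 8 with WS lower. Of the 28, 27 had passed the filter, and over all genes tested the share was 14.4% (7.95% with WS higher and 6.49% with WS lower). The median WS minus Col-0 difference of the tested members was 0.19 in flight and 0.15 on the ground, against 0.08 and 0.07 over all genes tested. WS stands in this comparison and in that with sku5, although with different libraries.

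Of the 22 members with sku5 below WS at BO, 17 had a WS mean above Col-0 at VG and 5 had it below. All 3 members with sku5 above WS had a WS mean below Col-0. The share of all genes with a WS mean above Col-0 is not given here. Both comparisons were in view when the members were chosen, so nothing is read from these directions. Between WS and Col-0, 7 of the 25 apart members did not overlap with WS higher, 2 did not overlap with WS lower, and 16 overlapped. Over all genes tested, 7.95% did not overlap with WS higher and 6.49% with WS lower. The 7 members with WS higher were BSK10, AT5G01780, HLIP, Fes1C, AT5G02280, AT5G02340 and AT5G02360. Fes1C had 54.63, 48.55 and 44.33 FPKM in WS VG flight, against 30.03, 35.82 and 32.0 FPKM in Col-0 VG flight. BSK10 had 16.3, 16.67 and 9.63 FPKM in WS VG flight and 14.84, 16.62 and 9.95 FPKM in WS VG ground, all above the Col-0 libraries, which reached 1.91 FPKM at most. AT5G02340 was listed at 0 in all 6 Col-0 libraries and had between 1.13 and 2.09 FPKM in the WS VG libraries. ORP3A had 25.69, 23.76 and 24.87 FPKM in WS VG flight, against 43.93, 47.04 and 51.36 FPKM in Col-0 VG flight. ORP3A and AT5G01350 were the 2 with WS lower.

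**Figure D4:**
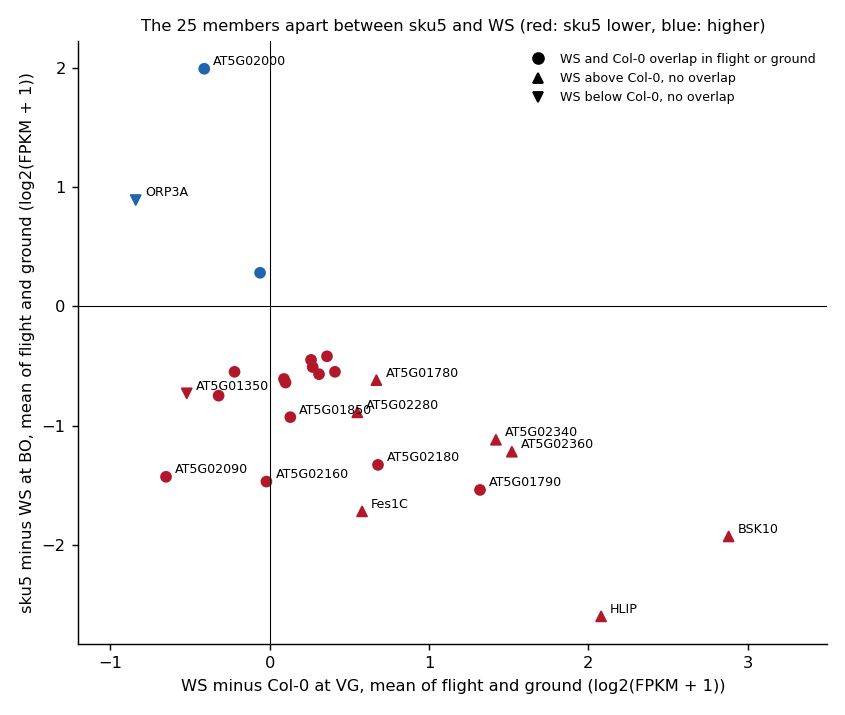
Each point is 1 of the 25 members apart between sku5 and WS. The horizontal axis is the WS minus Col-0 difference at VG and the vertical axis the sku5 minus WS difference at BO, each the mean of flight and ground on the log2(FPKM + 1) scale. Of the 22 red points (sku5 lower), 17 lie right of 0, with BSK10 and HLIP farthest right. The 3 blue points (sku5 higher) lie left of 0. Over all genes tested the median WS minus Col-0 difference was also above 0, at 0.08 in flight and 0.07 on the ground. Both comparisons were in view when the members were chosen, so nothing is read from the directions.

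Another 19 members did not overlap between WS and Col-0 at VG but were not apart between sku5 and WS at BO. Such a member can still differ between sku5 and WS in 1 condition. LECRK62 did so on the ground, at 0 FPKM in sku5 BO ground and 0.7 to 1.42 FPKM in WS BO ground. PRA1B5, a Rab acceptor protein of vesicle traffic, had 44.59, 18.2 and 25.36 FPKM in WS VG flight, against 3.22, 3.54 and 2.24 FPKM in Col-0 VG flight. At BO, PRA1B5 in WS was lower than at VG, at 3.42 ± 0.363 FPKM in WS BO flight and 7.0 ± 1.66 FPKM in WS BO ground (SD, n = 3 each). LECRK62, a lectin receptor kinase, had 4.33, 4.51 and 4.97 FPKM in WS VG flight and was listed at 0 in all 6 Col-0 libraries. Of the 50-base words of LECRK62, 98.45% occur in the opposite-strand gene AT5G01542, so its level is uncertain. Its neighbour LECRK63 averaged 7.8 ± 1.66 FPKM in WS VG flight and 2.26 ± 1.1 FPKM in Col-0 VG flight, and 6.86 ± 0.602 FPKM in WS VG ground and 2.58 ± 1.11 FPKM in Col-0 VG ground (SD, n = 3 each). With WS lower, AT5G02350 averaged 2.56 ± 0.974 FPKM in WS VG flight and 8.26 ± 3.19 FPKM in Col-0 VG flight, and AT5G01610, a protein of unknown function, averaged 44.9 ± 4.86 FPKM in WS VG flight and 80.3 ± 0.577 FPKM in Col-0 VG flight (SD, n = 3 each). AT5G01570 was listed at 0 in all 6 Col-0 libraries and had between 0.09 and 3.95 FPKM in the WS VG libraries.

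Flight against ground was not used to choose the members, and was tested with limma over all genes (Benjamini-Hochberg adjusted p under 0.05). At BO the share of members that changed was near that of all genes tested. In sku5, 14 of the 130 tested members changed, 8 higher and 6 lower in flight. Of all genes tested, 10.3% changed, 5.05% higher and 5.25% lower. In WS, 16 changed, 9 higher and 7 lower, against 11.7% of all genes tested, 5.51% higher and 6.15% lower. The 2 lines share no libraries in these differences. The fit takes 1 estimate of the spread from all 18 WS and sku5 libraries, however, so the calls of the 2 lines are not independent. Of the 20 members called in either line, 10 were called in both, all in the same direction, which is 71.4% of the sku5 calls and 62.5% of the WS calls. Over all genes tested, 1458 were called in both lines, all in the same direction, which is 70.4% of the sku5 calls and 62.2% of the WS calls, so the sharing among the members was near that of all genes. Of the 5 green shoot markers, whose sum is given above, CAB1 and PSBO1 rose in flight in sku5 and PSBO1 rose in WS, and the others did not pass the test. RCA had means of 37.9 FPKM in sku5 BO flight and 50.8 FPKM in sku5 BO ground, and of 45.6 FPKM in WS BO flight and 51.2 FPKM in WS BO ground. The part of the markers in the members' changes was not tested.

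The largest fall in flight was that of ABCI20, an ABC protein without membrane spans. It had 36.23, 48.1 and 66.28 FPKM in sku5 BO flight, against 138.32, 170.34 and 123.5 FPKM in sku5 BO ground. In WS it had 37.98, 65.89 and 47.07 FPKM in BO flight, against 179.36, 154.04 and 173.24 FPKM in BO ground. Flight and ground did not overlap in either line, and the change was -1.53 in sku5 (SE 0.23, limma adjusted p = 0.000646) and -1.76 in WS (SE 0.23, limma adjusted p = 0.000274). The largest rise was that of SIS, a gene known for its induction by salt. SIS had 59.97, 28.24 and 12.6 FPKM in sku5 BO flight, against 6.4, 7.5 and 6.24 FPKM in sku5 BO ground, and it had 33.35, 47.27 and 57.33 FPKM in WS BO flight, against 1.98, 9.04 and 8.33 FPKM in WS BO ground. The SIS change was 1.91 in sku5 (SE 0.49, limma adjusted p = 0.0187) and 2.81 in WS (SE 0.49, limma adjusted p = 0.00168). The sku5 call of SIS was lost when sku5 BO flight replicate 1 (limma adjusted p = 0.103), sku5 BO flight replicate 2 (0.053) or sku5 BO ground replicate 1 (0.0611) was left out, with a range of 0.0037 to 0.103 over all alternatives.

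**Figure D5:**
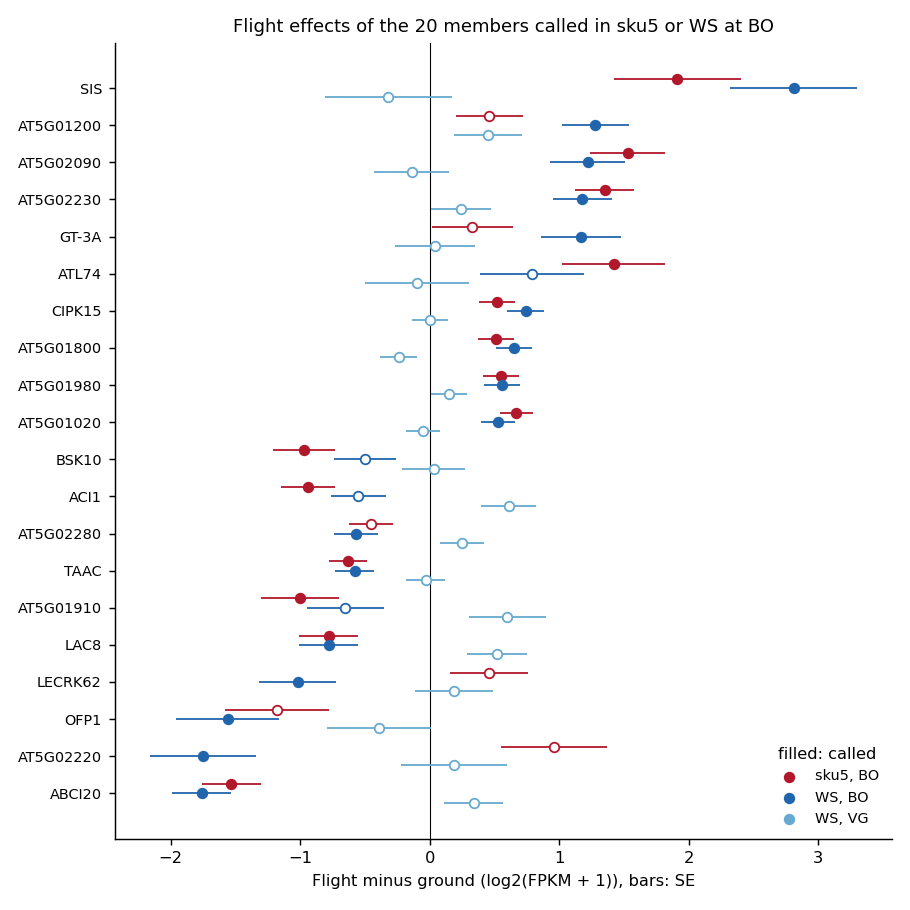
Flight minus ground differences on the log2(FPKM + 1) scale with SE bars, for the 20 members called in sku5 or WS at BO, with sku5 above WS in each row and WS at VG below. Filled points are called at a limma adjusted p under 0.05. ABCI20 lies lowest, at -1.53 in sku5 and -1.76 in WS, SIS highest, at 1.91 in sku5 and 2.81 in WS, and no VG point is filled.

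AT5G02230, a hydrolase of the haloacid dehalogenase superfamily, rose in both lines. It had 88.2, 65.46 and 59.45 FPKM in sku5 BO flight, against 35.18, 35.18 and 15.69 FPKM in sku5 BO ground, and 78.81, 83.32 and 91.23 FPKM in WS BO flight, against 39.62, 35.25 and 35.18 FPKM in WS BO ground. The change was 1.35 in sku5 (SE 0.23, limma adjusted p = 0.00157) and 1.18 in WS (SE 0.23, limma adjusted p = 0.00343). AT5G02090 rose by 1.53 in sku5 (SE 0.29, limma adjusted p = 0.00325) and by 1.22 in WS (SE 0.29, limma adjusted p = 0.012), on top of its lower level in sku5 in both conditions. In WS its call was lost without WS BO flight replicate 2 (limma adjusted p = 0.0576) or WS BO ground replicate 1 (0.0802), with a range of 0.0101 to 0.0802 over all alternatives. CIPK15 rose by 0.52 in sku5 (SE 0.14, limma adjusted p = 0.0299) and by 0.74 in WS (SE 0.14, limma adjusted p = 0.00389). The sku5 call of CIPK15 was lost without sku5 BO flight replicate 1 (limma adjusted p = 0.0929) or 2 (0.0827), without sku5 BO ground replicate 1 (0.118) or 3 (0.105), and in a fit of the compared libraries alone (0.179), and its range was 0.003 to 0.179. AT5G01200, a MYB-like transcription factor, rose by 1.28 in WS (SE 0.26, limma adjusted p = 0.00523). In sku5 the AT5G01200 change was 0.46 (SE 0.26, limma adjusted p = 0.298), and the difference between the lines, -0.82, did not pass the test (SE 0.37, limma adjusted p = 1.0).

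Calls shared by both lines were also made for the kinase AT5G01020, the RING protein AT5G01980 and AT5G01800, which rose, and for TAAC, the ATP and ADP carrier of thylakoids, and the laccase LAC8, which fell. The changes of these 5 lay between 0.51 and 0.78 in size in each line. The other calls were made in 1 line only, and none of these members differed between the lines by the test of the difference. In sku5 they were BSK10, ACI1, which binds the transcription factor ALC, ATL74, a RING ubiquitin ligase, and AT5G01910. ACI1 changed by -0.94 in sku5 (SE 0.21, limma adjusted p = 0.0104), a call that did not hold when sku5 BO ground replicate 2 was left out (0.0511) or in a fit of the compared libraries alone (0.0576), with a range of 0.00912 to 0.0576. In WS they were AT5G01200, AT5G02220, the repressor OFP1, the trihelix transcription factor GT-3A, AT5G02280 and LECRK62. AT5G02220 changed by -1.75 in WS (SE 0.41, limma adjusted p = 0.0107), which was lost without WS BO flight replicate 1 (0.0566) or WS BO ground replicate 1 (0.0702), with a range of 0.00642 to 0.0702. LECRK62 was listed at 0 in the 3 WS BO flight libraries and had 1.42, 1.04 and 0.7 FPKM in the 3 WS BO ground libraries. Its limma adjusted p was 0.0385, and the call was lost in 8 of 10 alternatives, with a range of 0.0132 to 0.167. Few calls survived every alternative. Of the 14 sku5 calls, 3 were kept in all alternatives (ABCI20, AT5G02230 and AT5G02090), and of the 16 WS calls, 5 were kept (ABCI20, SIS, AT5G02230, CIPK15 and AT5G01200). The other calls were lost in at least 1 alternative.

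BSK10 passed the flight test in sku5 and Fes1C in neither line. BSK10 fell in sku5, with a change of -0.97 (SE 0.24, limma adjusted p = 0.0167), and the 3 sku5 flight libraries lay below the 3 sku5 ground libraries. In WS the libraries did not overlap either, but the change, -0.50, did not pass the test (SE 0.24, limma adjusted p = 0.207). The sku5 call was lost without sku5 BO flight replicate 2 (limma adjusted p = 0.0506), without sku5 BO ground replicate 1 (0.0587) or 2 (0.0825), and in a fit of the compared libraries alone (0.0767), with a range of 0.00728 to 0.0825 over all alternatives. Fes1C did not pass the test: its change was 0.66 in sku5 (SE 0.22, limma adjusted p = 0.0622) and 0.50 in WS (SE 0.22, limma adjusted p = 0.15). It passed in sku5 without sku5 BO flight replicate 3 (limma adjusted p = 0.0122) or sku5 BO ground replicate 2 (0.0355), and after each library was shifted to the same median (0.0325).

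The flight responses of the lines were also set against each other. None of the 130 members passed the test of the sku5 minus WS difference of the flight effects, 7 had an unadjusted p under 0.05, and none of all genes tested passed (0.0%), with 317 of them at an unadjusted p under 0.05. The difference for BSK10 was -0.48 (SE 0.34, limma adjusted p = 1.0) and for Fes1C 0.16 (SE 0.31, limma adjusted p = 1.0).

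At VG the flight response of the segment did not pass the test. In WS none of the 130 members was called (0.0298% of all genes tested, 6 genes, with 0.00994% higher and 0.0199% lower). There 10 members had an unadjusted limma p under 0.05, against 1884 of all 20127 genes tested. In Col-0 none of 118 was called (0.00532%, 1 gene), and 8 had an unadjusted limma p under 0.05, against 926 of all 18786 genes tested. Nothing about the segment is read from these counts. The member nearest to a call was PDC3, a pyruvate decarboxylase of ethanolic fermentation. It had 3.92, 7.19 and 5.05 FPKM in WS VG flight, against 1.26, 1.9 and 0.32 FPKM in WS VG ground, and these did not overlap (change 1.61, SE 0.29, limma adjusted p = 0.0867). PDC3 passed without WS VG flight replicate 1 (limma adjusted p = 0.0485) or WS VG ground replicate 2 (0.0303). In the authors' deposited table of WS at VG, PDC3 is the 1 member among 57 genes, with a log2 fold change of 2.23 (SE 0.45). In Col-0 it overlapped, at 3.82, 9.24 and 1.59 FPKM in VG flight and 7.82, 3.03 and 2.64 FPKM in VG ground. Of the 50-base words of PDC3, 8.17% occur in AT5G01320. For BO, the authors' deposited tables hold 7 members among 923 genes for sku5 and 6 among 865 for WS. For ABCI20 the authors' deposited table gives log2 fold changes of -1.43 in sku5 (SE 0.24) and -1.68 in WS (SE 0.24), and for BSK10 it gives -1.14 in sku5 (SE 0.28).

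In WS, 9 members had flight effects at BO and VG that differed from each other, 3 with a higher and 6 with a lower effect at BO. Of all genes tested, 6.83% differed, with 3.63% higher and 3.2% lower. ABCI20, PDC3, LAC8, AT5G02370, ACI1 and AT5G02430 made up the lower ones, and SIS, AT5G01800 and CIPK15 the higher ones. For ABCI20 the level in WS was 59.67, 74.97 and 62.31 FPKM in VG flight, against 42.0, 67.73 and 48.19 FPKM in VG ground, which is nearer to the WS BO flight than to the WS BO ground libraries. The vehicle, the date, the age of the seedlings and the conditions before flight all differ between BO and VG and cannot be told apart.

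Genes of the 2 pathway lists were also tested for flight against ground at BO. Of the 24 tested brassinosteroid genes, 3 changed in sku5 and 4 in WS, against 10.3% of all genes tested in sku5 and 11.7% in WS, and nothing particular to the list is read from these counts. BIN2, the inhibitory kinase of the pathway, rose by 0.54 in sku5 (SE 0.11, limma adjusted p = 0.00554) and by 0.46 in WS (SE 0.11, limma adjusted p = 0.0139). Its relative BIL2 rose by 0.48 in sku5 (SE 0.12) and by 0.41 in WS (SE 0.12), and the synthesis enzyme DWF4 changed by -1.0 in sku5 (SE 0.26) and by -0.94 in WS (SE 0.26). The synthesis enzyme CPD rose by 0.63 in WS (SE 0.19). Each of these brassinosteroid calls was lost in at least 1 alternative. That of BIN2 in WS was lost without WS BO flight replicate 2 (limma adjusted p = 0.0524) or WS BO ground replicate 1 (0.0725), and in sku5 in a fit of the compared libraries alone (0.0833). The list's median was -0.03 in sku5 and -0.04 in WS, against -0.09 and -0.08 over all genes tested. Of the 16 HSP70 genes and Fes1 relatives, 6 fell in sku5, 5 fell in WS and none rose, where 5.25% of all genes tested fell in sku5 and 6.15% in WS. The list had medians of -0.52 in sku5 and -0.53 in WS. HSP70-4, a heat-induced cytosolic HSP70, changed by -2.02 in sku5 (SE 0.43, limma adjusted p = 0.00635) and by -1.94 in WS (SE 0.43, limma adjusted p = 0.00761), and Fes1A changed by -1.09 in sku5 (SE 0.29, limma adjusted p = 0.0244). The Fes1A call was lost without sku5 BO flight replicate 1 (limma adjusted p = 0.123), sku5 BO ground replicate 1 (0.0894) or 2 (0.0639). No alternative ended the calls of HSP70-3 and HSP70-4. Fes1C, by contrast, had higher means in flight than on the ground in both lines, without passing the test. At VG no gene of either list was called, in WS or in Col-0.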

How the data were processed

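The files hold 24 libraries of whole roots in 8 groups of 3. Per the submitters' processing notes, reads went through Trimmomatic 0.36, FastQC 0.11.4, MultiQC 1.1, STAR 2.7.3a and RSEM 1.2.31, and DESeq2 is named without a version. The sources used here give neither the genome build nor the strand setting of the counting. The authors deposited 1 table of FPKM per gene for the 18 WS and sku5 libraries and another for the 6 Col-0 libraries. The unit was read from the values, whose sums differ between columns, and the 2 tables were taken as normalized separately. A further 4 lists of changed genes were deposited, with a log2 fold change, its standard error, a p-value and a mean normalized signal per gene, per the file headers. The p-values look adjusted by their size, which the headers do not say, and they are not printed. FPKM values keep no read totals, so the depth is unknown. FPKM summed to between 1021562 and 1123929 per WS or sku5 library and between 1122804 and 1290752 per Col-0 library, and no columns were identical.

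FPKM were set to log2(FPKM + 1), which understates changes of weakly expressed genes. Genes that reached 1 FPKM in 3 or more of the libraries fitted were tested with limma 3.58.1 (trended variance, R 4.3.3), 20127 genes in the WS and sku5 fit (12 residual degrees of freedom) and 18786 in the Col-0 fit (4). P-values were adjusted over all genes tested with Benjamini-Hochberg, and calls are at 0.05. The fit gave 6 comparisons used as tests: flight minus ground in sku5 BO, WS BO, WS VG and Col-0 VG, and the sku5 minus WS and WS BO minus VG differences of the flight effects. It also gave sku5 minus WS in BO flight and in BO ground, the contrast that chose the members, reported as differences and counts and not used as a test. The fit was tested on simulated data. Python 3.11.15 with pandas 2.3.3, numpy 2.4.6 and matplotlib 3.10.9 did the rest. Gene names, order and overlaps came from RefSeq TAIR10.1, where 148 members had an entry. Shared sequence was the share of 50-base words of a gene's transcripts that occur in another gene.

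Members, lists and named genes were chosen with earlier results of these data known. Named by rule were BSK10 and Fes1C, the 12 apart members with the largest difference, up to 8 called members per flight comparison, 10 members for WS against Col-0, the 6 most abundant, the edge genes and called genes of the pathway lists. Same replicate numbers occur in all groups. Deviations from the group means correlated between -0.302 and 0.143 for same-numbered samples (median -0.014, 48 pairs) and between -0.247 and 0.228 for others (median 0.013, 96 pairs), so the numbers were not taken to pair samples.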

Additional observations from a re-analysis of the deposited data

Results flagged for a closer look

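The flight effect in WS differed between BO and VG for 9 members by the limma test of the difference itself (BO minus VG, on the log2(FPKM + 1) scale). For ABCI20 the difference was -2.1 (SE 0.32, limma adjusted p = 0.00281) and for SIS it was 3.13 (SE 0.69, limma adjusted p = 0.0145). No alternative ended these 2 calls. For AT5G01800 it was 0.88 (SE 0.2, limma adjusted p = 0.0177), for PDC3 -1.77 (SE 0.41, limma adjusted p = 0.0199) and for LAC8 -1.3 (SE 0.32, limma adjusted p = 0.0254). The value for AT5G02370 was -0.91 (SE 0.23, limma adjusted p = 0.0266) and for ACI1 -1.16 (SE 0.3, limma adjusted p = 0.0316). CIPK15 had 0.74 (SE 0.2, limma adjusted p = 0.0389) and AT5G02430 had -1.31 (SE 0.38, limma adjusted p = 0.0462). These 7 calls were each lost in at least 1 of the alternatives. Adjusted p reached at most 0.0601 for AT5G01800, 0.0697 for PDC3, 0.082 for LAC8, 0.0853 for AT5G02370, 0.106 for ACI1, 0.116 for CIPK15 and 0.128 for AT5G02430. The green shoot marker sum in WS was 640 to 712 FPKM in BO flight, 396 to 586 FPKM in BO ground, 167 to 284 FPKM in VG flight and 120 to 174 FPKM in VG ground. Its part in these differences was not tested.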

How the results depend on the processing

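A fit of only the libraries compared gave 26 called members for flight in WS at BO (16 in the fit of all 18 libraries), 5 in sku5 (14), 17 for the WS BO minus VG difference (9), 0 for sku5 minus WS on the ground (2) and 1 in flight (3). The cause was not tested. Shares of all genes called are not given for these and the following alternatives. The counts therefore do not show whether the members moved apart from the whole table. The counts for sku5 minus WS come from the contrast that chose the members and are no test of them. Leaving out 1 library at a time gave 6 to 14 members for WS at BO, 6 to 23 for sku5, 0 to 1 for WS at VG, 2 to 12 for WS BO minus VG, 1 to 2 for sku5 minus WS on the ground and 2 to 4 in flight. In WS the count fell to 6 without BO ground replicate 1 and 9 without BO ground replicate 3. In sku5 it was 7 and 8 without BO flight replicates 1 and 2, 23 without BO flight replicate 3, and 6 and 9 without BO ground replicates 1 and 2. In WS at VG it was 1 without VG flight replicate 1 or VG ground replicate 2. For WS BO minus VG it was 2 without BO ground replicate 1, 4 without VG flight replicate 2 or VG ground replicate 1, and 3 without VG ground replicate 3. For sku5 minus WS on the ground it was 1 without sku5 replicate 1 or 3, or without any 1 of the WS replicates. No member was called for Col-0 at VG or for the difference of the sku5 and WS flight effects in any alternative. With a pseudocount of 0.1, no filter, a filter at 5 FPKM or a shift of each library to the same median, counts stayed within 1.5 times. The apart members numbered 22 with a filter at 5 FPKM and 25 to 29 with 1 library left out. Leaving out a library cannot make separated libraries overlap, so the lower end of that range says nothing about stability. Over all genes tested, the number apart rose from 125 to between 177 and 345 with 1 library left out.

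With the replicate number as a block, 15 members were called in WS at BO, 14 in sku5, 0 in WS at VG, 0 in Col-0, 0 for the difference of the sku5 and WS flight effects, 6 for WS BO minus VG, and 2 on the ground and 3 in flight for sku5 minus WS. No result changed sign in any alternative. The unknown read depth limits weakly expressed members most.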

Other observations

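Beyond the segment, the stretch from AT5G02490 to AT5G05000 held 5 apart genes among 210 tested (2.38%). All of chromosome 5 but the members, this stretch included, held 23 among 4555 (0.505%). The 5 of the stretch were AT5G02680, GSTL3, AT5G03390, MED7B and WCRKC2. AT5G02680 averaged 0.81 FPKM in sku5 BO flight and 3.2 FPKM in WS BO flight, and 1.3 FPKM in sku5 BO ground and 3.07 FPKM in WS BO ground. GSTL3, a glutathione transferase of the lambda class, averaged 24.4 FPKM in sku5 BO flight and 36.4 FPKM in WS BO flight, and 39.7 FPKM in sku5 BO ground and 53.7 FPKM in WS BO ground.

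The 4 protein-coding genes that the rule leaves out of the interval were not apart. SQD2, an enzyme of sulfolipid synthesis, had sku5 minus WS differences of -0.25 in flight and -0.18 on the ground. LHCB4.1, a light-harvesting protein, had -0.08 and -0.11, the ferritin FER1 had 0.12 and 0.42, and the metallothionein MT2B had -0.13 and -0.51 (log2(FPKM + 1) scale).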
